A study of Bos taurus and Sus scrofa with 6 samples.

Results

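In the testes of prepubertal cattle, 185 of 18504 called cells carried UMIs of the dendritic transcription factor IRF8 or of the endosomal nuclease PLD4 together with CD74, and carried none of the complement genes that mark tissue macrophages. The study profiled testicular tissue of prepubertal livestock by droplet single-cell RNA sequencing, in which each captured transcript is counted once through a unique molecular identifier (UMI). The cattle were 3 Holstein animals of 4.5 months, with 1 library each, and the remaining libraries came from 3 pigs of 3 months. No animal was treated, so the comparisons below set classes of cells against each other within the same libraries. The whole series held 27961 called cells.

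A barcode entered when its total UMI count reached a minimum set for its library (460 in cattle 1, 972 in cattle 2 and 2644 in cattle 3), when IRF8 or PLD4 had at least 1 UMI, and when CD74 had at least 3. It was dropped when any of C1QA, C1QB or C1QC had a UMI, or when at least 2 genes of a single foreign lineage did (CD3E, CD3D and NKG7 for lymphocytes, PECAM1, CLDN5 and KDR for endothelium, FSHR, AMH and CLDN11 for Sertoli cells). These measured values chose the cells, called IRF8/PLD4 cells below, so the levels of those genes are descriptions and were given no test. Genes that travel with them in the same cells are for that reason not independent evidence of what the cells are.

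Dendritic cells take up antigen in a tissue and present it to T cells on MHC class II molecules. IRF8 is needed for the conventional type 1 and the plasmacytoid branches of the lineage, PLD4 is an exonuclease that trims nucleic acids in endosomes and is high in plasmacytoid dendritic cells and B cells, and CD74 is the invariant chain that guides MHC class II to the compartment where peptide is loaded. The conventional type 1 branch is known for cross-presentation to CD8 T cells and is recognised by BATF3, XCR1, CLEC9A, CADM1, WDFY4 and IDO1, whereas the plasmacytoid branch uses TCF4, BCL11A, TLR7, TLR9 and IRF7. In the testis the resident antigen-presenting cells are mostly interstitial and peritubular macrophages.

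The 3 cattle libraries held 5805223, 27409347 and 53325608 UMIs and gave 3545, 8751 and 6208 called cells. Of these, 23, 129 and 33 met the rule, or 0.649% (exact Clopper-Pearson 95% interval 0.412 to 0.972), 1.47% (1.23 to 1.75) and 0.532% (0.366 to 0.746), with a mean of 0.885% ± 0.514 (SD, n = 3). These intervals cover counting error only. The share in cattle 2 lay above the intervals of the other animals. The median IRF8/PLD4 cell had 1136 UMIs and 506 genes in cattle 1, 2034 and 739 in cattle 2, and 5524 and 1593 in cattle 3. Summed over the cells this gave 28814, 291349 and 187404 UMIs, so that cattle 2 supplied most of the cells and cattle 1 the thinnest sum, where 3 UMIs correspond to 104 CPM, the UMIs of a gene per 1000000 summed UMIs. The same 3 UMIs were worth 10.3 CPM in cattle 2 and 16.0 CPM in cattle 3.

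Both IRF8 and PLD4 had a UMI in 101 cells (13, 81 and 7 in cattle 1, 2 and 3), IRF8 alone in 59 (5, 35 and 19) and PLD4 alone in 25 (5, 13 and 7). For 54 cells the IRF8 or PLD4 criterion rested on a single UMI. At the edge of the rule, 0, 8 and 3 cells had exactly 3 CD74 UMIs, and 3, 11 and 7 barcodes that met every other criterion had 2. A further 309 barcodes were left out for a C1Q UMI, 57 of them with only 1 such UMI, and 10 for a pair of genes of another lineage. A larger group of 921 cells carried CD74 without IRF8, PLD4 or C1Q. Called cells of different cattle libraries shared 45, 23 and 71 barcodes, close to the 42.1, 29.9 and 73.7 that barcodes drawn at random would share, and no barcode met the rule in more than 1 animal. Of the IRF8/PLD4 barcodes, 2 were shared with a called cell between cattle 1 and 2, 2 between cattle 2 and 3, and 0 between cattle 1 and 3.

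CD74 had a lower median in cattle 3 than in the other animals. Its median was 49 UMIs per cell in cattle 1 (range 4 to 93), 63 in cattle 2 (3 to 151) and 8 in cattle 3 (3 to 284), although the cells of cattle 3 were sequenced most deeply. The median share of a cell's UMIs taken by CD74 was 4.28%, 3.10% and 0.234%. In cattle 3 the cells fell into a set with many CD74 UMIs and a set near the minimum. A threshold of 5 CD74 UMIs per 1000 UMIs, chosen after these values were seen, put 37 cells below it, 0 in cattle 1, 18 in cattle 2 and 19 in cattle 3. None of these 37 cells had UMIs of both IRF8 and PLD4.

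**Figure D1:**
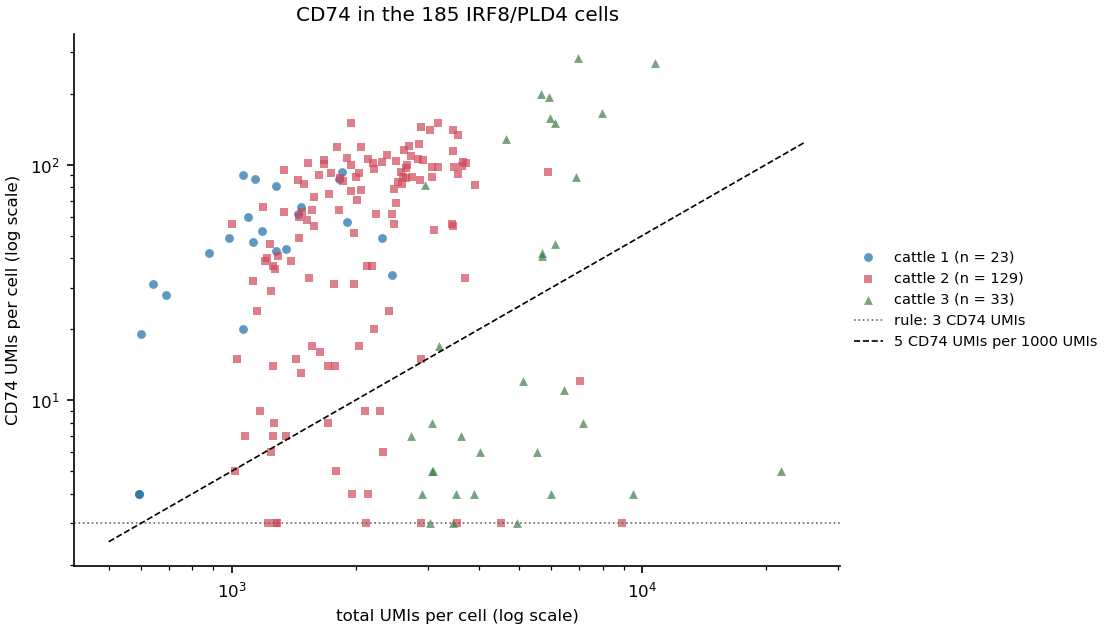
CD74 UMIs against total UMIs for each of the 185 IRF8/PLD4 cells, both axes on a log scale, coloured by animal, with the rule's minimum of 3 UMIs dotted and 5 per 1000 UMIs dashed. The cells of cattle 1 lie above the dashed line, whereas 19 of the 33 cells of cattle 3 lie below it.

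The 37 cells with little CD74 carried transcripts of the testicular stroma. DCN, a matrix proteoglycan of fibroblast-like and peritubular cells, had a UMI in 36 of the 37 and in 48 of the other 148, at 3243 against 546 CPM in the summed cells. ACTA2, the smooth muscle actin of myoid cells, stood at 3033 against 327 CPM. By animal it stood at 1336 against 322 CPM in cattle 2 and at 3849 against 331 CPM in cattle 3. At least 2 genes of the myoid and stromal list were found in 36 of 37 against 36 of 148 cells. C3H1orf54, which was picked after its values were seen, had a UMI in 10 of 37 against 127 of 148. DNASE1L3, WDFY4 or BATF3 was found in 3 of 37 against 102 of 148, and at least 2 genes of the type 1 dendritic list in 10 of 37 against 96 of 148. The cells with little CD74 thus differed from the rest in stromal and in dendritic genes, and values without them are given beside the main results below. Without them cattle 1, 2 and 3 had 23, 111 and 14 cells.

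Over all 185 cells the myoid and stromal list, with DCN as its most abundant gene and all 8 genes detected, summed to 937, 2396 and 5315 CPM in cattle 1, 2 and 3, against 1565, 4334 and 5825 CPM in macrophages and 1921, 3085 and 4300 CPM in droplets with at most 50 UMIs. The sums in cattle 1 and 2 lay below those of the droplets and that of cattle 3 above. INSL3, the peptide hormone of Leydig cells, was found in 161 cells at 9891, 1874 and 1281 CPM. It was also found in 92.5% of the Sertoli reference cells (799 cells with a median of 3408 UMIs, chosen by their own markers) and made up 111300, 24510 and 17400 CPM of the same droplets. The IRF8/PLD4 cells, with a median of 2149 UMIs, had it at 87.0%. After thinning to 1000 UMIs the shares were 64.4% and 60.6%, so that INSL3 was about as frequent in a cell type that does not make it. Of the endothelial genes outside the rule, VWF had a single UMI and the others were at 0. The mast cell, erythroid and lymphoid progenitor lists had at least 2 genes in no cell.

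The markers that named the cells behaved as the rule made them. IRF8 stood at 1354, 1455 and 496 CPM, PLD4 at 1041, 916 and 326 CPM, and CD74 at 39880, 27420 and 10530 CPM. All 3 were lowest in cattle 3.

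Of the dendritic lists fixed for the markers, the conventional type 1 list was the one seen in most cells. At least 2 of its 13 genes had a UMI in 11 of 23, 79 of 129 and 16 of 33 cells, or 106 of 185 (57.3%). In cattle 3 these were 8 of the 14 cells with more CD74 and 8 of the 19 with little. Among the C1Q macrophages described below the same held for 1 of 63, 22 of 308 and 187 of 551 cells, whose median UMIs (629, 1325 and 4561) were lower than those of the IRF8/PLD4 cells in each animal. The gap was narrowest in cattle 3. Up to 8 of the 13 were found in 1 cell. The share was 76.2% among cells with both IRF8 and PLD4, 44.1% with IRF8 alone and 12% with PLD4 alone. The plasmacytoid list reached 2 genes in 1, 10 and 8 cells of cattle 1, 2 and 3 (10.3% in all), against 4, 12 and 138 macrophages. Of its 17 genes 13 were analysed here, without LILRA4, CLEC4C, IL3RA and SCT, whereas all 13 type 1 genes were. The type 2 conventional list reached 2 genes in 3, 2 and 8 cells, 12 of which also had at least 2 macrophage genes. Among the 63, 308 and 551 macrophages it did so in 2, 17 and 78. The mature dendritic list reached 2 genes in 0, 17 and 9 cells against 0, 28 and 130 macrophages. Within animals, the type 2 share was higher than in macrophages in cattle 1 and 3 and lower in cattle 2. The mature share was higher in cattle 2 and 3. The pooled shares (7.03% against 10.5%, and 14.1% against 17.1%) mix animals in different proportions and give no direction. The plasmacytoid list summed to 278, 206 and 310 CPM, against 185, 191 and 220 CPM in macrophages, and the type 1 list to 1666, 1723 and 651 CPM against 219, 296 and 363 CPM. Both sums were higher in the IRF8/PLD4 cells of each animal, the type 1 sum by more.

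DNASE1L3, a secreted nuclease that clears DNA from dying cells, stood at 347, 388 and 42.7 CPM and was found in 69 of the 185 cells (37.3%) against 0.876% of the Sertoli reference cells. After every cell was thinned to 1000 UMIs, which left out 8 of the 185 cells and 66 of the 922 macrophages, its share was 25.4% against 0.701% of macrophages. All 69 of these cells also had IRF8. WDFY4, a protein required for cross-presentation, stood at 312, 316 and 58.7 CPM and was found in 63 cells, 41 of which also had DNASE1L3. BATF3, the transcription factor that maintains IRF8 in the type 1 branch, stood at 139, 154 and 21.3 CPM. For each of these genes cattle 1 and 2 were alike and cattle 3 was several-fold lower. The BATF3 values of cattle 1 and 3 rested on few UMIs, just above the 104 and 16.0 CPM that 3 UMIs are worth there. In the 14 cells of cattle 3 that had at least 5 CD74 UMIs per 1000, DNASE1L3 stood at 94.7, WDFY4 at 118 and BATF3 at 47.3 CPM, still below the other animals.

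RAB7B, a small GTPase of late endosomes, was found in 39 cells (174, 124 and 10.7 CPM), and IDO1, which degrades tryptophan, in 27 (139, 185 and 10.7 CPM). Both were again lowest in cattle 3, under the 16.0 CPM that 3 UMIs are worth there. ID2, an inhibitor of E proteins that favours the conventional over the plasmacytoid branch, stood at 416, 374 and 262 CPM, and at 416, 442 and 521 CPM without the cells with little CD74, when cattle 3 was the highest. Other dendritic genes were thin. CLEC9A, the receptor for exposed actin, had UMIs in 6 cells (69.4, 13.7 and 0 CPM), FLT3, the receptor of the lineage's growth factor, in 13 cells (34.7, 41.2 and 5.34 CPM), and XCR1, a chemokine receptor, and ZBTB46, a transcription factor shared by conventional dendritic cells, in none, which allows up to 5.91 CPM over the pooled cells.

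CST3, the protease inhibitor cystatin C, made up 35640, 36240 and 11880 CPM and had a UMI in 180 of the 185 cells. It was also found in 99.6% of Sertoli cells, so presence alone does not mark the class, whereas its level exceeded that of macrophages (3870, 4109 and 5850 CPM) in each animal. In cattle 3, leaving out the cells with little CD74 moved CST3 to 19350 CPM, C3H1orf54 to 1041 CPM, LYZ from 1307 to 2864 CPM, LTB from 758 to 1657 CPM and IFI6 from 4488 to 1917 CPM. C3H1orf54 stood at 2291, 2176 and 550 CPM and was found in 137 cells. MT3, a metallothionein, stood at 798, 1610 and 139 CPM in 103 cells, and NAPSA, an aspartic protease, at 347, 137 and 53.4 CPM in 49 cells. NAPSA had a UMI in none of the 799 Sertoli reference cells.

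**Figure D2:**
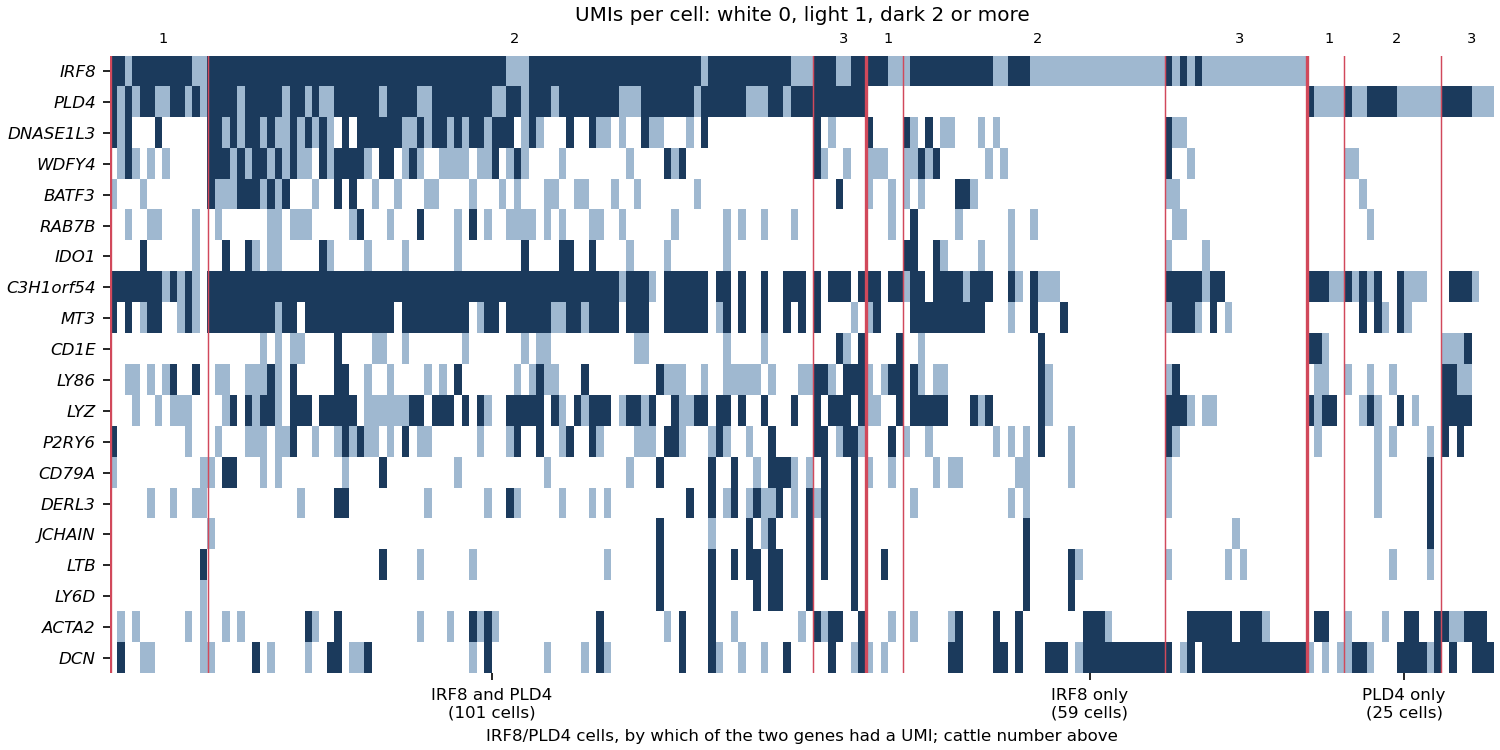
UMIs of 20 genes in each of the 185 IRF8/PLD4 cells (columns; white 0, light 1, dark 2 or more), split by which of IRF8 and PLD4 had a UMI and by animal. C3H1orf54 fills most cells with both genes in each animal, MT3 most in cattle 1 and 2, and DNASE1L3 most in cattle 2, where WDFY4 fills fewer. DCN fills the cells at the right of the set with IRF8 alone in cattle 2 and 3.

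Among the plasmacytoid genes, TLR9 was found in 5 cells, TLR7 in 0, SPIB in 1, BCL11A in 9, TCF4 in 17 and IRF7 in 24. TCF4, the factor that fixes plasmacytoid fate, stood at 0, 48.1 and 69.4 CPM in cattle 1, 2 and 3, against 50.5, 21.7 and 39.6 CPM in macrophages, above them in cattle 2 and 3. The value in cattle 1 rested on 0 UMIs, with 3 UMIs worth 104 CPM, and gives no direction. UNC93B1, which carries nucleic acid sensing receptors to endosomes, was more abundant at 625, 302 and 251 CPM.

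Genes of B cells and antibody-forming cells were found in a minority. DERL3, a protein of endoplasmic reticulum quality control, stood at 139, 151 and 101 CPM in 34 cells, CD79A, a chain of the B cell receptor, at 139, 151 and 74.7 CPM in 34 cells, and JCHAIN, the joining chain of secreted antibodies, at 0, 85.8 and 133 CPM in 12. In cattle 3 most of these UMIs lay in 2 cells, with 9 and 8 of DERL3, 8 and 5 of CD79A and 14 and 10 of JCHAIN. PAX5, CD79B and CD22 were at 0, and MS4A1 had a UMI in 3 cells. LY6D was found in 10 cells, 1, 8 and 1 in the 3 animals. These 10, singled out after their values were seen, all had CD79A and LTB as well as IRF8, 8 had DERL3 and 6 had JCHAIN, whereas none had WDFY4, BATF3, RAB7B, IDO1, C3H1orf54, CD1E or LYZ and 1 had DNASE1L3. Over all 185 cells, 105 had a UMI of DNASE1L3, WDFY4 or BATF3 and 38 of DERL3, JCHAIN or LY6D, with 18 in both sets and 60 in neither. The UMIs of LY6D came mostly from cattle 2, with 69 UMIs there against 1 in cattle 1 and 2 in cattle 3.

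For antigen presentation, the class II chain listed as BoLA DR-ALPHA stood at 17180, 14110 and 6275 CPM and HLA-DMB, which edits the bound peptide, at 1458, 1091 and 587 CPM. BLA-DQB, picked after its values were seen, followed the same order at 12910, 7263 and 4658 CPM. In contrast, 3 class II genes were abundant in cattle 1 alone. BOLA-DQB stood at 2117, 78.9 and 5.34 CPM, BOLA-DQA5 at 1423, 48.1 and 0 CPM, and HLA-DMA at 1076, 37.8 and 26.7 CPM. The macrophages of the same animals had the same pattern, with BOLA-DQB at 589, 15.8 and 4.59 CPM. The DQ genes are polymorphic and have close copies, so the assignment of their reads is uncertain. HLA-DMA is not a DQ gene, and the cause of the pattern was not tested. CTSS, the protease that degrades the invariant chain, stood at 1874, 1256 and 1692 CPM, and B2M, the class I light chain, at 10620, 11160 and 12170 CPM. The low class II levels of cattle 3 rested in part on the cells with little CD74. Without them BoLA DR-ALPHA stood at 17180, 16880 and 13490 CPM, HLA-DMB at 1458, 1269 and 1219 CPM, and BLA-DQB at 12910, 8659 and 10090 CPM, so that cattle 3 no longer came last for BLA-DQB. CTSS then stood at 1874, 1484 and 3254 CPM, highest in cattle 3.

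Chemokines that attract T cells were present in all 3 animals. CXCL10 stood at 694, 693 and 213 CPM, CXCL16 at 451, 553 and 123 CPM and CXCL9 at 69.4, 182 and 96.1 CPM. Without the cells with little CD74 the levels in cattle 3 were 260 CPM for CXCL10, 272 CPM for CXCL16 and 142 CPM for CXCL9, the first 2 still the lowest of the animals. Macrophages carried these genes too. After thinning to 1000 UMIs, pooled over animals, CXCL10 was found in 33.9% of cells against 34.6% of macrophages. CXCL9 was found in 13.6% against 15.8% and CXCL16 in 33.9% against 18.6%. The chemokine and receptor list summed to 1943, 1781 and 582 CPM against 2137, 2876 and 1119 CPM in macrophages. In the tests below, 0 of its 14 genes were higher than in macrophages and 1 was lower. The interferon-induced gene IFI6 stood at 208, 189 and 4488 CPM. Cattle 3 was also high in macrophages (1666, 1480 and 6479 CPM), in lymphocytes (177, 279 and 3608 CPM) and in droplets with at most 50 UMIs (700, 549 and 5367 CPM), so that cattle 3 stood apart in every one of these. CCR7, the receptor that leads dendritic cells to lymph nodes, had a UMI in 1 cell, and IL12B in 0.

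To find which genes set these cells apart from other immune cells, UMIs were summed per animal and class and tested with edgeR's quasi-likelihood test on 11074 genes, with Benjamini-Hochberg adjustment at 0.05 and genes of the selection rule left without a call. The replicates were the 3 animals, so each p-value measures the spread between them. The C1Q macrophages (922 cells, 63, 308 and 551 per animal) had UMIs of at least 2 C1Q genes and at least 3 of CD74. The lymphocytes (1099 cells, 107, 596 and 396) had at least 2 of CD3E, CD3D and NKG7. All other called cells numbered 16298.

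Against macrophages, 6 of 10 type 1 dendritic genes were higher in IRF8/PLD4 cells, as were C3H1orf54, CST3, MT3, LTB and CD79A, and 5 of 11 macrophage genes were lower. The macrophages were chosen by C1Q genes, which the IRF8/PLD4 cells could not carry. The direction of the macrophage genes, here and below, was thus partly set by that choice. In all, 63 genes were higher (0.569% of those tested) and 33 lower (0.298%), with a median log2 fold change of -0.22 over all genes. With the animal as a block, which pairs the classes of 1 animal, 196 were higher and 161 lower, and these included all of the former calls. In contrast, leaving out cattle 1, 2 or 3 gave 28, 26 or 35 higher genes, of which 27, 23 or 34 were among the 63, and 11, 21 or 39 lower. Without the 37 cells with little CD74, 160 were higher and 116 lower, including 63 of the 63 and 30 of the 33.

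Of the 10 conventional type 1 genes tested, 6 were higher and none lower, with a median log2 fold change of 2.61. DNASE1L3 was higher by 4.69 ± 0.68 (log2, SE, adjusted p = 6.8e-04 in edgeR, higher in 3 of 3 animals), and the call held without each animal in turn (adjusted p = 0.029, 0.040 and 1.4e-04 in edgeR without cattle 1, 2 and 3). WDFY4 was higher by 3.35 ± 0.58 (adjusted p = 0.0038) and ID2 by 2.24 (0.0059). RAB7B (3.50, 0.013), IDO1 (3.69, 0.028) and BATF3 (2.99, 0.038) were also called. For BATF3 macrophages stood at 0, 21.7 and 11.2 CPM, so that its value in cattle 3 (21.3 CPM) lay within their range. The list's count fell to 2 without cattle 1, to 1 without cattle 2 and to 5 without cattle 3, and was 6 without the cells with little CD74. Leaving out cattle 2 removed the calls of WDFY4 (adjusted p = 0.27), ID2 (0.76), IDO1 (0.58), RAB7B and BATF3 (both 1), and leaving out cattle 1 those of WDFY4 (0.057), IDO1 (0.17), RAB7B (0.13) and BATF3 (0.18). Without cattle 3 the call of ID2 was lost (0.066).

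CST3 was higher by 2.71 ± 0.45 (log2, SE, adjusted p = 0.0027) and C3H1orf54 by 3.10 ± 0.52 (0.0028). Every sum of the IRF8/PLD4 cells exceeded every macrophage sum for both genes. The adjusted p of CST3 was 0.057 without cattle 1 and 0.059 without cattle 2, and that of C3H1orf54 was 0.057 without cattle 1. MT3, at 0, 13.8 and 47.0 CPM in macrophages, was higher by 5.06 ± 0.81 (adjusted p = 0.0018, and 0.057 without cattle 1). NAPSA was higher by 4.50 (7.1e-04), and SMIM5 (6.33, 5.1e-04) and VSIG2 (5.66, 7.2e-04), a small membrane protein and an immunoglobulin domain protein, passed under every alternative run. LYZ, the antibacterial lysozyme, stood at 659, 645 and 1307 CPM against 118, 231 and 158 CPM, with 98, 52 and 26 of the 245 UMIs of cattle 3 in 3 cells. It was higher by 2.36 (0.013), a call lost without cattle 1 (0.057) and without cattle 3 (0.13). LY86, a partner of the receptor RP105, was higher by 2.82 (0.023, and 0.082 without cattle 1). FLT3 was higher by 4.56 (0.031), on 13 cells, and was no longer called without cattle 1 (0.13) or cattle 3 (0.11). Without cattle 2 it had too few UMIs to be tested.

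LY6D was higher by 8.12 ± 1.16 (log2, SE, adjusted p = 6.8e-04 in edgeR), with 72 UMIs against 2 in macrophages. All 72 lay in the 10 cells described above, which were singled out by LY6D. LY6D was not tested without cattle 2, where too few UMIs remained. LTB, the membrane-bound lymphotoxin subunit, stood at 174, 302 and 758 CPM against 50.5, 11.8 and 10.6 CPM and was higher by 5.10 ± 0.61 (1.4e-04). It had a UMI in 24 of the 185 cells, and 2 cells of cattle 3 held 53 and 86 of the 142 LTB UMIs there. CD79A was higher by 4.38 (3.8e-04). LTB and CD79A passed under every alternative run. JCHAIN (4.75, 0.0022) was lost without cattle 3 (0.097) and DERL3 (3.00, 0.0051) without cattle 2 (0.60). FCRLA, an intracellular Fc receptor-like protein of B cells, had 11 UMIs in IRF8/PLD4 cells and none in macrophages and was at least 29.3-fold higher, with the floor of 3 counts taken over the 3 sums (adjusted p = 0.011, and 0.088 without cattle 1). Of the other B cell genes tested, CR2 was lower (0.016, and 0.20 without cattle 1 or 0.56 without cattle 2) and 3 did not pass.

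**Figure D3:**
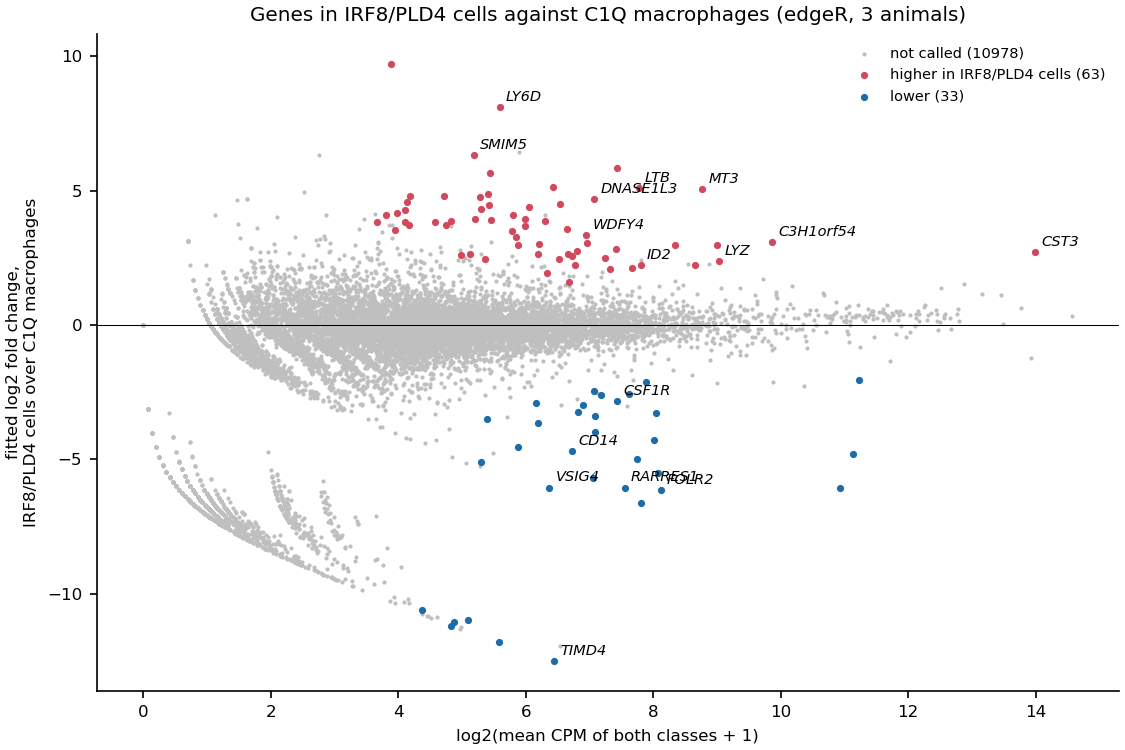
Fitted log2 fold change of IRF8/PLD4 cells over C1Q macrophages for 11074 genes against log2 of the mean CPM of both classes plus 1, with 63 genes called higher in red and 33 called lower in blue. Genes with no UMI in 1 class form the curved bands, where the fitted value depends on the prior count.

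The macrophage list, tested on 11 genes outside the rule, had 0 higher and 5 lower, VSIG4, CSF1R, MRC1, CD68 and STAB1, with a median of -2.83, or -2.77 with genes at 0 set to their bounds. FOLR2, the folate receptor of resident macrophages, stood at 34.7, 3.43 and 5.34 CPM against 858, 545 and 213 CPM and was lower by 6.14 ± 0.83 (log2, SE, adjusted p = 3.8e-04, called without each animal). TIMD4, a receptor for dead cells, had no UMI against 564 in macrophages and was at least 23.5-fold lower (6.8e-04, called without each animal). CD14, the co-receptor for endotoxin, stood at 34.7, 3.43 and 5.34 CPM against 269, 207 and 111 CPM (log2 fold change -4.70, 0.0058, and 0.086 without cattle 2). CSF1R, the receptor for the macrophage growth factor, was at 69.4, 6.86 and 69.4 CPM against 353, 389 and 140 CPM (-2.83, 0.037). It was not called without cattle 1 (0.20), without cattle 2 (1) or without the cells with little CD74 (0.12). The list as a whole summed to 1562, 913 and 875 CPM against 3567, 3162 and 1471 CPM, AIF1 being its most abundant gene, with 5 genes called lower without cattle 3 but 0 without cattle 1 or cattle 2. It had 3 genes lower without the cells with little CD74, and 8 with the animal as a block. PLD3, the close relative of PLD4, was lower at 0, 61.8 and 133 CPM against 471, 430 and 317 CPM (-2.13, 0.031), and was not called without cattle 1 (0.061) or cattle 2 (0.76). The chemokine CCL2 was lower as well (-3.97, 0.020), but not without cattle 2 (0.36) or cattle 3 (0.086).

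Several lists gave few or no calls against macrophages. None of 8 plasmacytoid genes was called (median 0.72, 2 at an unadjusted p under 0.05 in edgeR, BCL11A and TLR9, and 0 in DESeq2). Of 15 class II genes BOLA-DYA was higher (adjusted p = 0.037 in edgeR, and 0.40 without cattle 3) and LGMN, a lysosomal protease, lower (0.015, and 0.077 without cattle 1 or 0.62 without cattle 2). Of 9 class I genes 0 were called in edgeR (3 at an unadjusted p under 0.05 and 0 in DESeq2). Of 15 interferon-response genes 0 were called in edgeR (0 at an unadjusted p under 0.05 and 0 in DESeq2), but 1 was lower with the animal as a block and 1 without cattle 3. With the animal as a block, 6 class II genes and 3 class I genes were higher. Without the cells with little CD74, 3 class II genes, 2 class I genes and 1 plasmacytoid gene were. The 8 mature dendritic genes and 9 cell division genes also gave 0 calls in edgeR, with 1 and 0 at an unadjusted p under 0.05 and 0 and 0 in DESeq2. With the animal as a block, 1 mature dendritic gene was lower and 1 cell division gene was higher. A p that missed the threshold does not show that levels were equal.

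**Figure D4:**
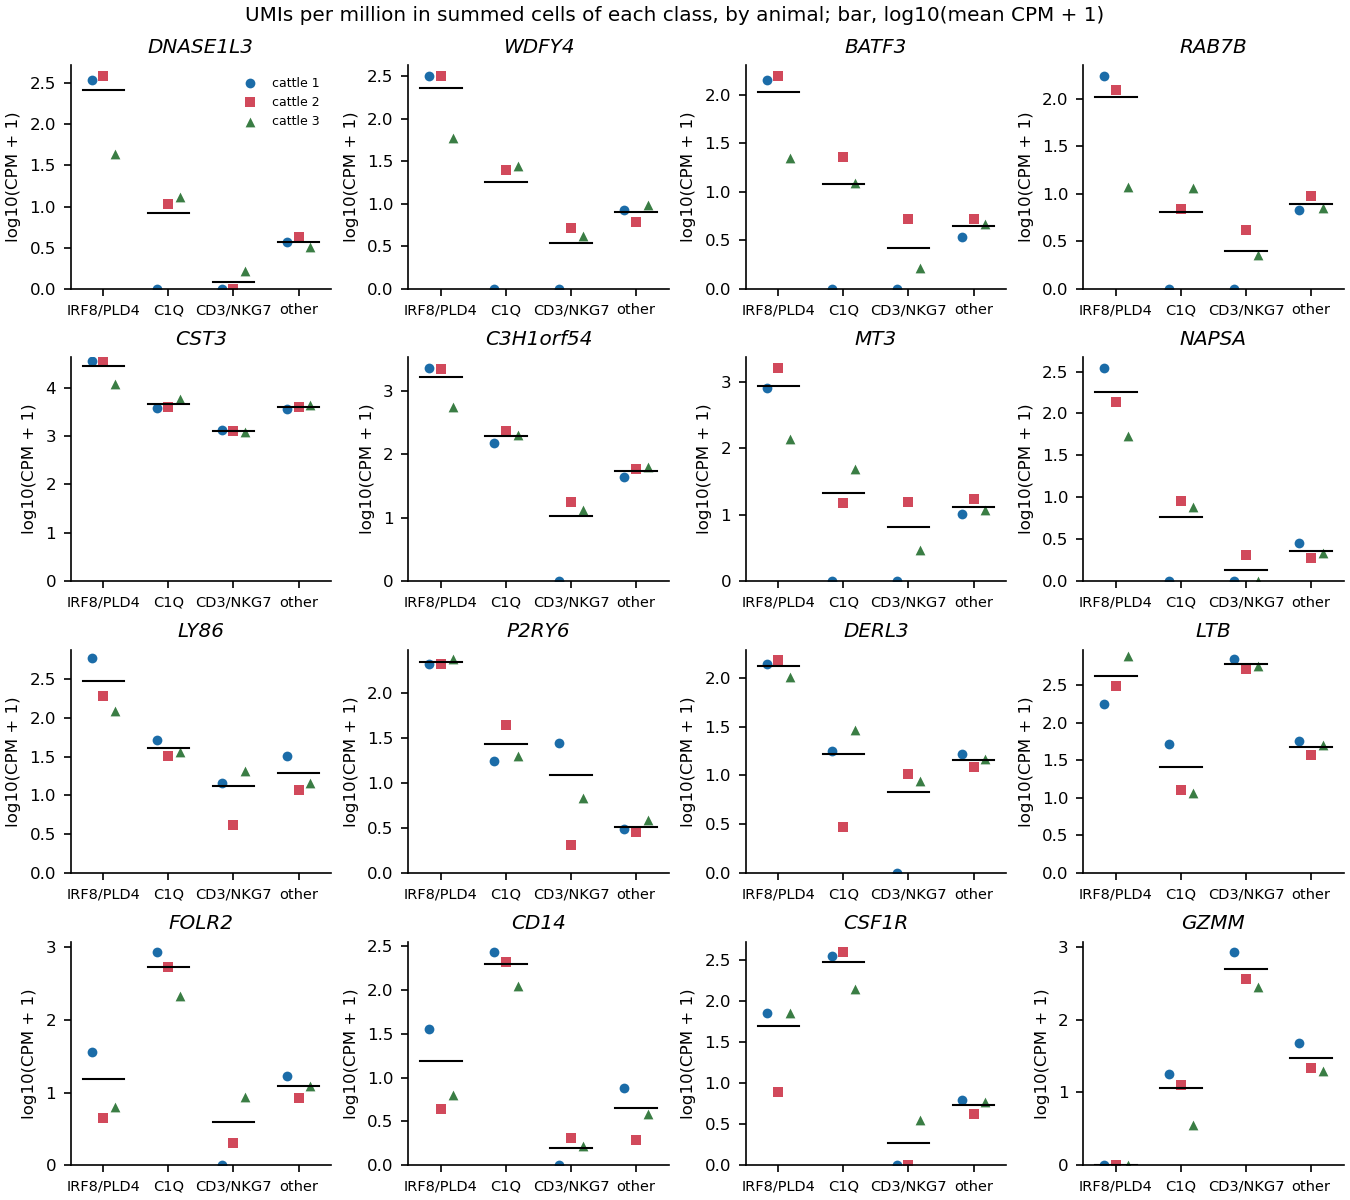
CPM of 16 genes in the summed cells of each class and animal, as log10(CPM + 1), with a bar at the mean, for IRF8/PLD4 cells, C1Q macrophages, CD3/NKG7 lymphocytes and all other called cells. DNASE1L3, C3H1orf54 and NAPSA are higher in the IRF8/PLD4 cells than in every other class in each animal, FOLR2 and CD14 are highest in macrophages, and cattle 3 lies lowest of the IRF8/PLD4 sums for DNASE1L3, WDFY4 and CST3.

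Against lymphocytes, 8 of 15 class II genes were higher and 7 of 10 T and NK cell genes were lower. The rules required CD74 of the IRF8/PLD4 cells and at least 2 of CD3E, CD3D and NKG7 of the lymphocytes. The directions of class II and of T and NK cell genes, here and in the paragraphs below, were thus partly set by that choice. Of 14 chemokine and receptor genes 3 were higher and 1 lower, and of 11 macrophage genes 2 were higher. There were 216 higher (1.95%) and 210 lower genes (1.90%), with a median log2 fold change of -0.13 over all genes. Scaled by library size alone, 385 were higher and 148 lower, the TMM factors of these classes differing by a mean of 0.49 on the log2 scale. With the animal as a block, 401 were higher and 565 lower. Without cattle 2 there were 108 and 103, and without cattle 3 131 and 85. Without the cells with little CD74 there were 252 and 233.

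No class II gene was called lower, and 1 was with the animal as a block. BoLA DR-ALPHA stood at 163, 62.8 and 86.7 CPM in lymphocytes and was higher in IRF8/PLD4 cells (log2 fold change 6.54, adjusted p = 4.5e-07 in edgeR). HLA-DMB was higher by 4.95 (4.3e-06) and CTSS by 2.78 (6.1e-04). SPI1, the factor that directs myeloid fate, stood at 139, 182 and 117 CPM against 0, 2.09 and 0 CPM (6.95, 8.7e-06), and TYROBP, a signalling adaptor of myeloid and NK cells, was higher by 6.60 (7.2e-06). BTK, a kinase downstream of the B cell receptor, and BLNK, its adaptor, had no UMI in lymphocytes and were at least 37.4-fold and 42.5-fold higher, with the floor again over the 3 sums pooled, which bounds the pooled cells and not each animal. MILR1, an immunoglobulin-like receptor, was at least 71.3-fold higher and MS4A7, a tetraspan membrane protein, at least 47.5-fold. CXCL10 (3.80, 3.5e-04), CXCL9 (4.90, 2.2e-04) and CXCL16 (3.30, 0.0010) were higher, the last with an adjusted p of 0.054 without cattle 2, and CCL5 was lower (-6.82). Of 10 type 1 dendritic genes 6 were higher, with CADM1, an adhesion molecule, in place of ID2, which lymphocytes also carried (299, 268 and 310 CPM). The call of CADM1 (0.041) was lost without cattle 1 (0.12), cattle 2 (0.77) or cattle 3 (0.057).

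Of 10 T and NK cell genes outside the rule 7 were lower and 0 higher, among them LCK (-7.99) and CD8A (-7.97), the kinase and the co-receptor of the T cell receptor. GZMM, a granzyme, had no UMI in IRF8/PLD4 cells and was at least 55.8-fold lower, and GIMAP5 at least 32.3-fold lower. CD79A did not pass, at 139, 151 and 74.7 CPM against a lymphocyte mean of 268 CPM (log2 fold change -1.53, adjusted p = 0.055 in edgeR). It was called lower with the animal as a block (5.4e-04) and by DESeq2 (0.032). Of 8 plasmacytoid genes BCL11A and TCF4 were higher. The adjusted p of BCL11A was 0.052 without cattle 1 and 0.26 without cattle 2, and that of TCF4 was 0.24 without cattle 2, 0.75 without cattle 3 and 0.073 without the cells with little CD74. TCF4 was not called against macrophages or against other cells, where BCL11A and TLR9 were higher (2 of 8 plasmacytoid genes, 3 with the animal as a block and 0 without cattle 1 or cattle 2).

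Against all other called cells, which are mostly somatic and germ cells of the testis, 336 genes were higher (3.03%) and 150 lower (1.35%), with a median of -0.29. With the animal as a block, 538 were higher and 512 lower. The lower count was 44 without cattle 2, 74 without cattle 3 and 510 without the cells with little CD74, and the higher count was 170 without cattle 2 and 493 without the cells with little CD74. P2RY6, a receptor for extracellular UDP, stood at 208, 213 and 240 CPM against 2.11, 1.86 and 2.86 CPM (log2 fold change 6.45, adjusted p = 5.0e-07 in edgeR). Without the cells with little CD74 it stood at 208, 252 and 533 CPM, and 1 cell of cattle 3 held 22 of the 45 UMIs there. LYZ was higher by 6.18 (5.0e-07) and CD1E, a protein of the CD1 family at 416, 78.9 and 101 CPM, by 6.87 (9.7e-07). DNASE1L3 was higher by 6.39 (9.7e-07) and CD86, the co-stimulatory ligand for T cells, by 5.65 (1.5e-06). These 5 genes were called without each animal in turn.

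By list, 6 of 7 type 2 dendritic genes, 6 of 10 type 1 genes, 7 of 15 class II genes and 7 of 13 signalling genes were higher than in other cells. The type 2 count was 1 without cattle 3, where CD1A, FCER1A and CLEC10A had too few UMIs to be tested, and 4 without cattle 1 and 5 without cattle 2. DESeq2 called 3. INHA, the inhibin subunit made by Sertoli cells, was lower at 243, 185 and 139 CPM against 1572, 1315 and 807 CPM (-2.94, 3.6e-04, called without each animal). Of the 7 type 2 genes, CD1E alone was also called against macrophages (2.74, adjusted p = 0.046 in edgeR), but not without cattle 1 (0.27) or cattle 3 (0.21).

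**Figure D5:**
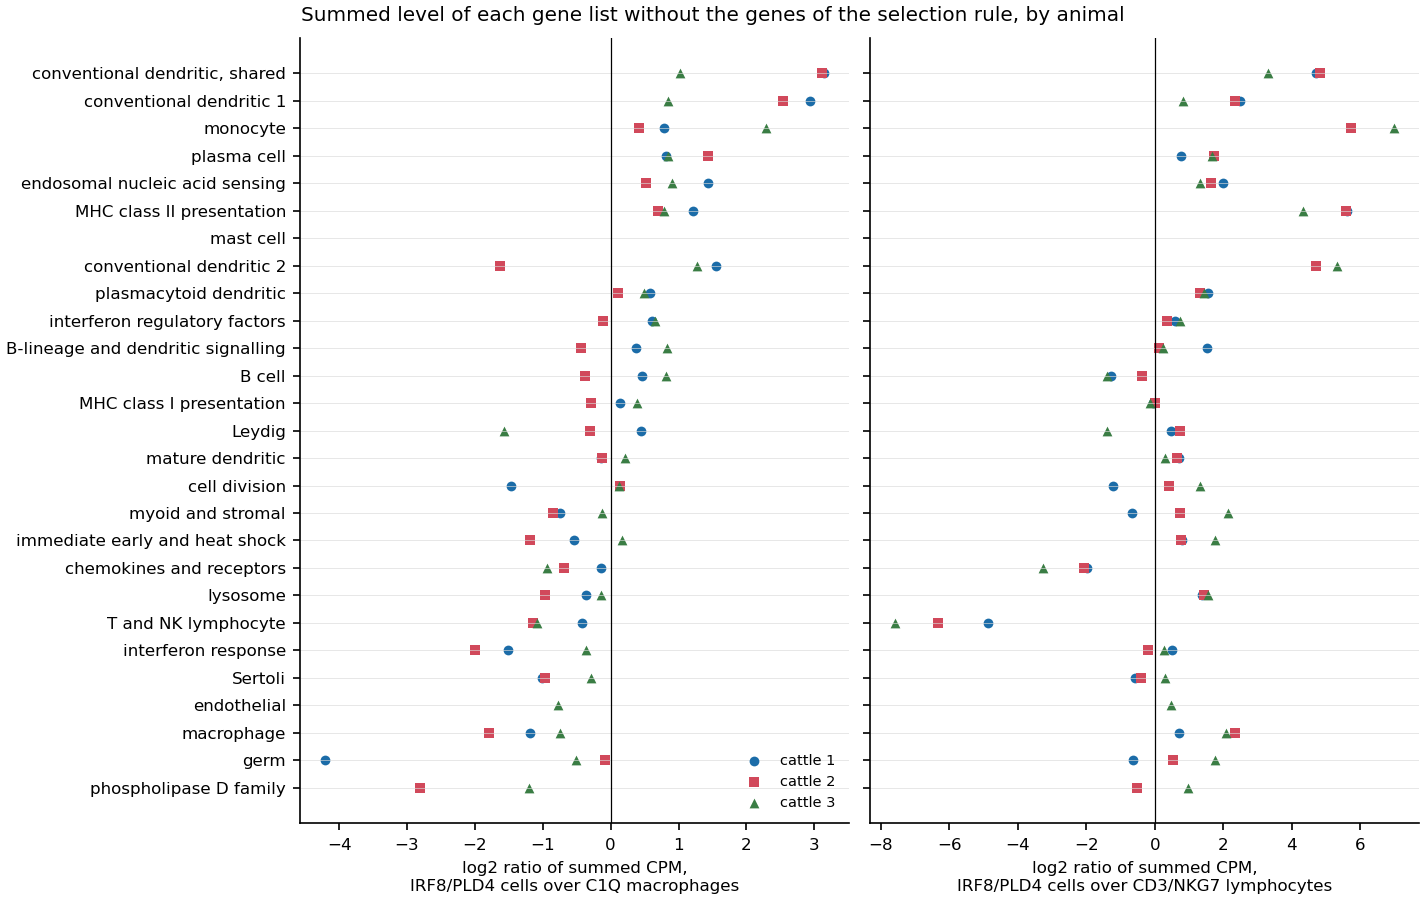
Log2 ratio of the summed CPM of each gene list, rule genes left out, in IRF8/PLD4 cells over C1Q macrophages (left) and over CD3/NKG7 lymphocytes (right), 1 point per animal, with no point where either sum was 0. The shared and the type 1 conventional dendritic lists lie above 0 in each animal on the left, the macrophage list lies below 0, and the T and NK cell list lies far below 0 on the right.

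Within the class, the cells with a PLD4 UMI (126 cells) were set against those with IRF8 alone (59 cells) on 4726 genes. In edgeR 32 genes were higher (0.677%) and 23 lower (0.487%), with 527 at an unadjusted p under 0.05, and 143 and 44 with the animal as a block, but DESeq2 called none, a minimum of 30 UMIs left none, and without the cells with little CD74 there were 1 and 0. Leaving out 1 animal gave 0 to 5 higher and 0 to 1 lower. The median log2 fold change over all genes was 0.04. The monocyte list, of which LYZ was the most abundant gene, summed to 630, 725 and 3105 CPM with PLD4 and to 999, 527 and 225 CPM with IRF8 alone, and the myoid and stromal list to 966, 1687 and 2660 CPM against 800, 4218 and 7534 CPM. The cells with IRF8 alone in cattle 1 numbered 5 and summed to 5003 UMIs, of which 3 are worth 600 CPM, so that no direction can be read there. In cattle 2 and 3 the monocyte list was higher and the stromal list lower with PLD4. The split is therefore given as a description.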

How the data were processed

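Tissue was dissociated, about 8000 cells per library were loaded on the 10x Chromium system, and the authors deposited UMI counts per gene and barcode made with Cell Ranger (2.1.0 in the submitters' processing notes, with ARS-UCD1.2 for cattle). The counts were used as deposited, for 19994 cattle genes, 16350 of them with a symbol. To set each UMI minimum, barcodes were ranked by total, the 99th percentile among the top 3000 was taken, and it was divided by 10. Labels give 2 cattle libraries the same testis number but different animal tags, and each library was taken as 1 animal. The members, the 30 gene lists (295 genes, 272 in the files' gene table) and the tests were chosen with earlier results of these data known.

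Counts were summed per animal over 4 classes (12 sums), scaled by TMM and fitted in edgeR 4.0.16 (R 4.3.3). Genes with at least 10 UMIs over the 3 immune classes were tested, two-sided. Rule genes had no call. Named genes were those of the lists, and per comparison the 12 highest and 8 lowest called genes with a symbol, at least 10 UMIs and 1 direction in 3 of 3 animals. A gene named otherwise is marked. On simulated counts with 200 genes changed 4-fold, the fit recovered 18.5% against macrophages, 23.5% against lymphocytes and 19.5% against other cells (each of 11089 genes), and 0.5% for PLD4 (of 4732). Same-animal sums deviated together (r 0.159 to 0.357 over 3585 genes between IRF8/PLD4 cells and each other class), so the animal pairs the classes. The main fit left this pairing out, and only the block used it. Alternatives were DESeq2 1.42.0, other scalings and filters, the block, each animal left out, stricter cell rules, and Scrublet in scanpy 1.11.5 (Python 3.11.15). Doublets were otherwise kept. The rule of 5 CD74 UMIs per 1000 UMIs was added after seeing the data. No cattle genome of this build was used here, so no sequences are shown.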

Additional observations from a re-analysis of the deposited data

Results flagged for a closer look

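The comparisons above used no pig library. By the same rule, with the pig gene symbols and each library's own UMI minimum, 372 of 9457 called pig cells qualified, 70, 72 and 230 in the 3 pigs, or 2.16%, 1.83% and 10.1% of their called cells. At least 2 genes of the plasmacytoid list were found in 264 of the 372 (71.0%) and at least 2 of the conventional type 1 list in 130 (34.9%). TCF4 stood at 848, 304 and 273 CPM and was found in 212 cells, and BCL11A at 432, 158 and 133 CPM in 149 cells. DNASE1L3 stood at 0, 94.3 and 34.9 CPM, and XCR1 had a UMI in 24 cells. JCHAIN was at 14.9, 3.04 and 2779 CPM, and in the same pig it was also high in C1Q macrophages (0, 8.34 and 1039 CPM) and in other cells (82.0, 20.7 and 526 CPM). The species differ in gene tables, breed and depth, and the difference between them was not tested.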

How the results depend on the processing

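There were 3 animals, and the thinnest sum held 23 cells. On simulated 4-fold changes the fits recovered 18.5% to 23.5% against the other classes and 0.5% for PLD4. Of 221 named results, the 3359 values under 16 alternatives kept direction and call in 3001, kept direction and lost the call in 358, and reversed in 0. Leaving out cattle 1, 2 or 3 lost 72, 78 and 58 of them, and the animal as a replicate block lost none. The genes higher and lower were 196 and 161 with the replicate block against macrophages, 401 and 565 against lymphocytes, 538 and 512 against other cells, and 143 and 44 for PLD4. Leaving out 1 animal gave 26 to 35 higher and 11 to 39 lower against macrophages, 108 to 193 and 85 to 278 against lymphocytes, 170 to 319 and 44 to 150 against other cells, and 0 to 5 and 0 to 1 for PLD4. With only the 6 sums compared, 80 genes were lower than in macrophages. Library size alone gave 385 higher than in lymphocytes and 78 lower for PLD4. DESeq2 gave 0 and 0 for PLD4, as did a minimum of 30 UMIs. With CD74 at 5 per 1000 UMIs, 160 were higher and 116 lower than in macrophages, 510 lower than in other cells, and 1 and 0 differed for PLD4. A minimum of 500 UMIs in every library gave 303 cells, and both IRF8 and PLD4 gave 101. The causes were not tested. Leaving out the highest Scrublet scores removed 1, 18 and 1 cells and changed no count against macrophages, lymphocytes or other cells by over 1.5 times. The split by PLD4 was not run this way.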
